A study of Mus musculus with 24 samples.

Results

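The 31 genes described here are known from the kidney's proximal tubule, and their transcripts were measured in RNA from 2 segments that lie further along the nephron. They were listed by name from what is known of the proximal tubule, but with earlier results of these data known. Each was read from 1 probe set that names a single gene symbol, the one with the highest mean over all arrays. All 31 were measured, out of 18194 genes. The list holds 2 phosphate transporters, 4 genes of endocytosis and the brush border, 4 transporters of glucose, lactate or bicarbonate, 5 of organic anions, urate or dicarboxylates, 3 genes of amino acid or fatty acid uptake, 3 of gluconeogenesis, 7 of other metabolism, and the kinase gene Ak4, the secreted protein gene Kap and the transcription factor gene Hnf4a.

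RNA came from tubules that were microdissected from collagenase-treated left kidneys of male C57BL/6J mice on standard chow, under 12 h of light and 12 h of dark. One segment was the distal convoluted tubule with the connecting tubule (DCT/CNT), and the other was the cortical collecting duct (CCD). Each was sampled at 6 zeitgeber times 4 h apart, with ZT0 at lights on and ZT12 at lights off, and 2 RNA pools were hybridised per segment and time, which gave 24 arrays in 12 groups. All groups were of the same strain, sex and diet, with no gene deletion and no drug. Each time drew on 5 animals, and whether both pools of a time share animals is not given in the sources used here. The p-values below rest on the spread of pools, not of animals, and that spread may be technical. Those of the 24 h curves described below also rest on how far the time means lie from the curve. The comparisons ask whether these transcripts vary with the hour in either segment and whether their levels differ between the segments.

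The proximal tubule takes back most of the filtered glucose, phosphate, amino acids and protein, secretes organic anions, and makes glucose. It does so with apical sodium-coupled transporters, an endocytic receptor pair, basolateral carriers and a set of mitochondrial and cytosolic enzymes, many of them under the nuclear receptor HNF4A and the homeodomain factor HNF1. The distal convoluted tubule, connecting tubule and collecting duct are known for sodium chloride, potassium, calcium, acid and water transport, and proximal genes are not counted among their markers. In tissue pieces taken by hand, a gene's level depends on which cells the piece holds and on the RNA in each of them. In such pools fewer cells of a type and less RNA per cell cannot be told apart.

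Promoter sequences are shown for the members whose time of day pattern passed a test (Ak4, Pck1 and Keg1), for G6pc, whose promoter held the same 8 letters as that of Ak4, and for Hnf4a, whose product is a regulator of proximal genes. These 5 were chosen with their values known. The sequences are the 225 bases before a start site listed by RefSeq (build GRCm38.p6), all on the plus strand, 5′ to 3′, with matches to the searched motifs in capitals. Ak4 has several listed starts. The same TTACGTAA match lies 16, 39 and 48 bases before 3 of them, and the printed window is that with 16 bases.
Ak4, chr4:101419064-101419288: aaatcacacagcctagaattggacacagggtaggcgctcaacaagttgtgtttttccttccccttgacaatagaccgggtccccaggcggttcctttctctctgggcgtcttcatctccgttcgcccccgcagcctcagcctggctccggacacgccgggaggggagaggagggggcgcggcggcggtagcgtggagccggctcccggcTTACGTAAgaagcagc
Pck1, chr2:173152848-173153072: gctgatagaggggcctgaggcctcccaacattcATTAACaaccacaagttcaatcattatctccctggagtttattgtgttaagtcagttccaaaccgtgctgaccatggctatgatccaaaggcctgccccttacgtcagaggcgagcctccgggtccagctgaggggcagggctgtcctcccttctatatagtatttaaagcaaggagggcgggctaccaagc
Keg1, chr19:12695565-12695789: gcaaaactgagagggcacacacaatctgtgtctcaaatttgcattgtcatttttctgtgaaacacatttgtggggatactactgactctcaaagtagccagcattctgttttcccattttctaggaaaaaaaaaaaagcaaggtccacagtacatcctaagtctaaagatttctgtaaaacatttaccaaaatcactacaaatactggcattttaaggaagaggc
G6pc, chr11:101367491-101367715: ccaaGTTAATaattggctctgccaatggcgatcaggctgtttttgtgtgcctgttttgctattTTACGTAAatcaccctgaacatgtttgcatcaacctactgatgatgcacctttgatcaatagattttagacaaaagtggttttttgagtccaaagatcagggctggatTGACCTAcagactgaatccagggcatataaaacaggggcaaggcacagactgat
Hnf4a, chr2:163546930-163547154: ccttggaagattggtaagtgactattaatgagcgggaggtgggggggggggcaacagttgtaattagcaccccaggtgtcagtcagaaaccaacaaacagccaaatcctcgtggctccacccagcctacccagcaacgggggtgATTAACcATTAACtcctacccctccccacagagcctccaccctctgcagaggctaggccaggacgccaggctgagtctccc

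Of the 31 members, 27 had a RefSeq promoter window, and both strands of the 250 bases before each start were searched. The 8 letters TTACGTAA, a D-box form bound by PAR bZIP and E4BP4 factors of the clock, stood in Ak4 and G6pc (2 of 27 members, against 0.118% of all genes with a window). In the printed windows they begin 16 bases before the start in Ak4 and 162 bases before it in G6pc. A second D-box form, TTATGTAA, stood in Slc17a1 and Miox (2 of 27, against 0.977%). The HNF1 core letters GTTAAT stood in 7 of 27 (Slc34a1, Slc22a6, Slc22a8, Pck1, G6pc, Miox and Hnf4a), against 7.49% of genes. Hnf4a held it in 2 copies, 81 and 74 bases before the start. The HNF4 letters CAAAGTCCA stood in Slc3a1 and Agxt2 (2 of 27, against 0.451%), the E-box CACGTG in 4 of 27 (Slc13a3, Ass1, Dao and Ak4, against 6.86%), and the ROR letters TAGGTCA in Slc17a1 and G6pc (2 of 27, against 2.55%). The full HNF1 palindrome, the direct repeat of the nuclear receptor core with 1 spacer base and the cAMP element TGACGTCA had 0 matches among the members. These are matches of letters, and the arrays carry no measure of binding.

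All array values below are log2 values normalised with RMA (robust multi-array average), so a difference of 1 is 2-fold. The arrays had medians between 5.80 and 5.89 over all probe sets. The interquartile range was 3.32 to 3.65 on the DCT/CNT arrays and 4.08 to 4.28 on the CCD arrays. As a check of the dissection, the mean of 7 DCT and CNT genes ran from 9.48 to 11.40 on DCT/CNT arrays and from 7.39 to 8.56 on CCD arrays, so the segments did not overlap. The mean of 8 principal cell genes ran from 10.63 to 10.90 in DCT/CNT and from 11.98 to 12.28 in CCD, again without overlap. The 7 intercalated cell genes had means of 11.73 to 12.03 and 12.28 to 12.52. Means of the thick ascending limb genes (7) lay between 7.05 and 8.37 in DCT/CNT and between 6.01 and 7.92 in CCD, and those of podocyte genes (5) between 6.20 and 6.67 and between 6.02 and 6.25. Those of endothelial genes (7) lay between 7.93 and 8.26 in DCT/CNT and between 7.75 and 8.29 in CCD.

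Proximal genes were measured in both segments, and the mean of the 31 members differed between arrays by time and by pool. In DCT/CNT it read 7.57 and 6.77 in pools 1 and 2 at ZT0, 6.96 and 6.87 at ZT4, 6.86 and 6.76 at ZT8, 8.21 and 8.33 at ZT12, 7.27 and 7.82 at ZT16, and 7.55 and 7.92 at ZT20. Both ZT12 pools stood above the 10 others. In CCD the pools read 7.70 and 6.90 at ZT0, 6.92 and 7.38 at ZT4, 7.91 and 6.80 at ZT8, 8.32 and 7.23 at ZT12, 7.14 and 7.97 at ZT16, and 7.64 and 7.74 at ZT20. Here high and low arrays stood side by side at the same time, and ZT12 pool 1 was the highest while ZT12 pool 2 lay among the lower ones. In DCT/CNT, 27 of 31 members had their highest time mean at ZT12 (16.5% of all genes) and 17 their lowest at ZT8 (20.9%). In CCD 16 were highest at ZT12 (16.4% of all genes), 8 at ZT20 (14.2%) and 5 at ZT8 (24.3%), and 19 were lowest at ZT4 (17.5%).

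**Figure D1:**
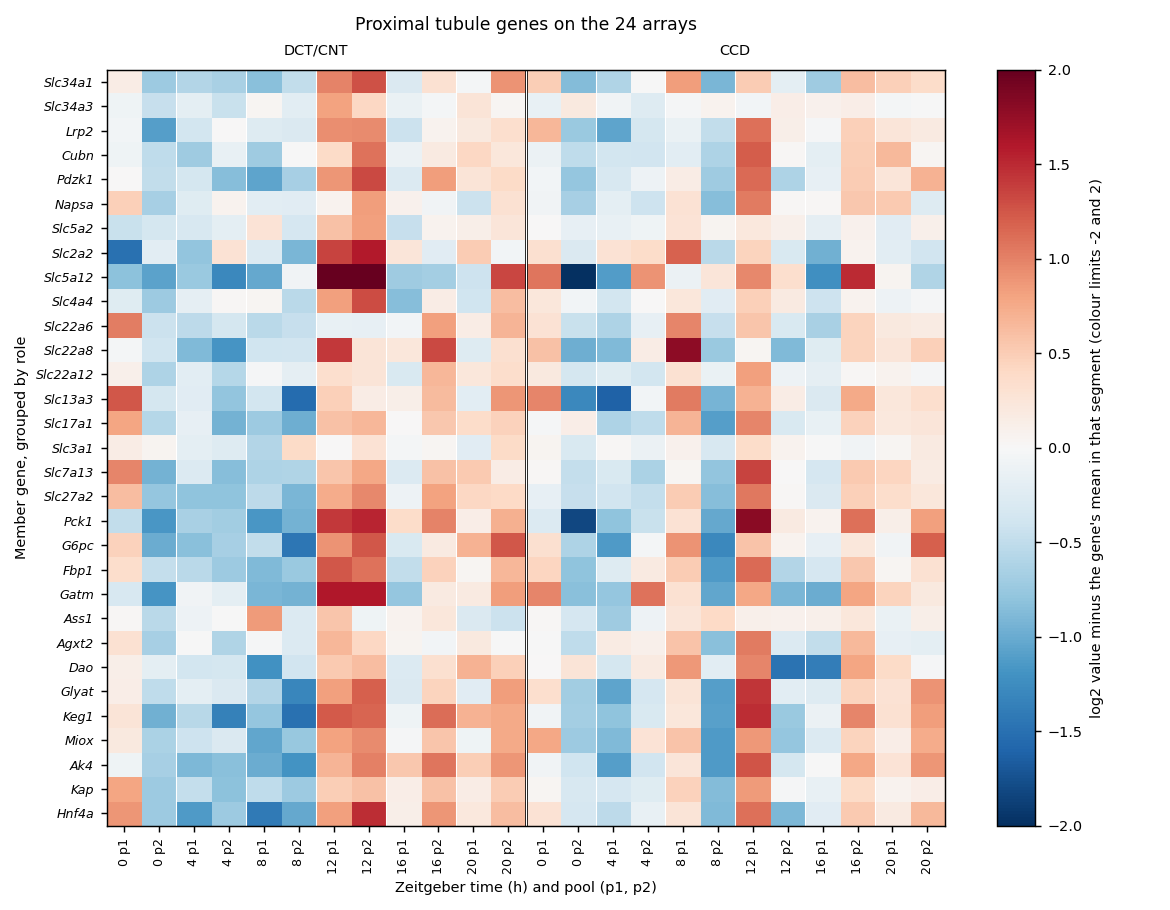
Each row is a member and each column an array, with DCT/CNT on the left and CCD on the right and the 2 pools of a time next to each other. Colour gives the log2 value minus the gene's mean in that segment. Most rows are red in both ZT12 pools of DCT/CNT, while in CCD the pools of ZT0, ZT8, ZT12 and ZT16 differ. The member medians of these coloured values in CCD pools 1 and 2 were 0.05 and -0.50 at ZT0 and 0.29 and -0.83 at ZT8. They were 0.96 and -0.10 at ZT12 and -0.22 and 0.48 at ZT16.

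The pools of a group moved the members together. At CCD ZT8, pool 1 read higher than pool 2 in 28 of 31 members (46.3% of all genes), by a median of 1.32 log2 units or 2.49-fold. There 20 of 31 differed by more than 1 log2 unit, against 1.43% of all genes. At CCD ZT12, pool 1 read higher in 30 of 31 (48.4% of all genes), with a median of 1.02 and with 16 of 31 beyond 1 log2 unit (1.47% of all genes). At CCD ZT16 the order turned, and pool 1 read higher in 1 of 31 (47.2% of all genes), with a median of -0.72 and 10 of 31 beyond 1 log2 unit (1.34%). These are differences between single arrays and have no test.

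At CCD ZT0, pool 1 read higher in 28 of 31 (51.1% of all genes; median 0.61, with 10 beyond 1 log2 unit against 1.23%). At CCD ZT4 and ZT20, pool 1 read higher in 8 and 13 of 31 (51.9% and 52.9% of all genes), with medians of -0.38 and -0.07 and with 6 and 1 members beyond 1 log2 unit against 0.775% and 0.742%. In DCT/CNT the widest gap was at ZT0, where pool 1 read higher in 29 of 31 (51.6% of all genes), by a median of 0.82, with 12 beyond 1 log2 unit (1.52%). At DCT/CNT ZT16, pool 1 read higher in 3 of 31 (50.8% of all genes), with a median of -0.58 and 3 beyond 1 log2 unit (1.58%). Pool 1 read higher in 17, 18, 10 and 8 of 31 at DCT/CNT ZT4, ZT8, ZT12 and ZT20 (51.3%, 43.5%, 46.4% and 51.1% of all genes). The medians there were 0.06, 0.04, -0.13 and -0.40, with 1, 2, 1 and 4 members beyond 1 log2 unit against 1.39%, 1.95%, 1.51% and 1.77% of all genes. The median SD between pools was 0.43 for the members and 0.19 for all genes in DCT/CNT, and 0.66 and 0.16 in CCD.

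**Figure D2:**
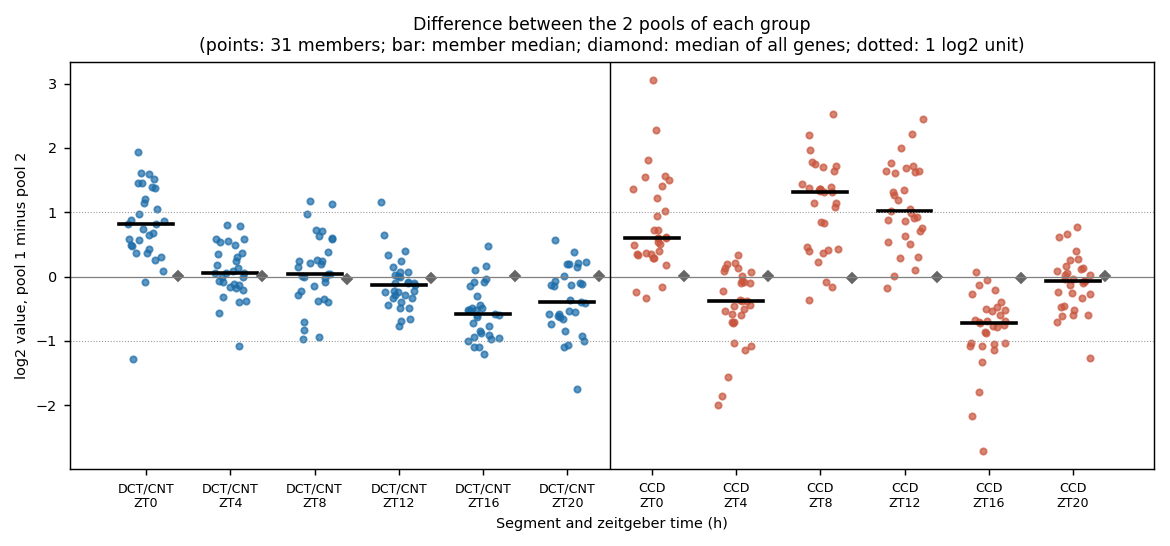
The log2 value of pool 1 minus that of pool 2 is plotted for the 31 members in each of the 12 groups, with the member median as a bar and the median of all genes as a diamond. The diamonds lie close to 0 in every group, while the member medians reach 1.32 at CCD ZT8 and -0.72 at CCD ZT16.

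Members followed this order to different degrees. Glyat and Kap had the same pool higher as the member median in 12 of 12 groups, and Ak4, Pck1, Keg1, G6pc, Pdzk1, Slc4a4, Slc13a3 and Slc17a1 in 11. Slc34a3 did so in 6, and Cubn, Slc2a2, Agxt2 and Dao in 7. The median member did so in 10 of 12 and the median gene in 6, and 21 of 31 members reached at least 9, against 7.398% of all genes. The members define the median they are set against here, so this is a description.

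The 63 other measured proximal genes, from a list of 73, moved with the members. Their mean ran from 6.37 (ZT8 pool 2) to 7.31 (ZT12 pool 2) in DCT/CNT and from 6.39 (ZT8 pool 2) to 7.53 (ZT12 pool 1) in CCD. Both ends fell on the same arrays as those of the members. At CCD ZT8, pool 1 read higher in 56 of 63 of them and at CCD ZT12 in 53 of 63. Markers of neighbouring segments had the same pool higher as the members at each of the 6 times in CCD. In CCD the DCT and CNT mean read 8.03 and 7.60 in pools 1 and 2 at ZT0, 7.96 and 8.42 at ZT4, 7.68 and 7.66 at ZT8, 8.16 and 7.79 at ZT12, 7.39 and 8.56 at ZT16, and 8.11 and 8.15 at ZT20. The thick ascending limb mean there read 7.58 and 6.97, 7.47 and 7.92, 6.73 and 6.45, 7.32 and 6.96, 6.01 and 7.89, and 6.91 and 7.40 at the same times. The gap of the DCT and CNT list was thus small at ZT8 and ZT20 and wide at ZT16. The intercalated cell mean had the other pool higher at all 6 times in CCD, and the principal cell mean had the same pool higher at 3. The podocyte mean had the same pool higher at 3 times in CCD and the endothelial mean at 2. In DCT/CNT the DCT and CNT mean and the thick ascending limb mean shared the members' order at 4 of 6 times (ZT0, ZT4, ZT12 and ZT16). The widest of these gaps there were 11.21 and 9.98 at ZT0 and 9.48 and 11.40 at ZT16 for the DCT and CNT mean. In DCT/CNT the intercalated cell and podocyte means shared the members' order at 3 of 6 times, the endothelial mean at 2 and the principal cell mean at 1. The part of these other cell types in the members' values was not tested.

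Time of day was tested with a 24 h cosine curve. The amplitude is the distance from the curve's mean to its peak in log2 units. A gene was called rhythmic at an adjusted p under 0.05 over all genes in limma. All 24 arrays were fitted together with 1 residual variance per gene, so CCD arrays also bear on the DCT/CNT calls. In DCT/CNT 3 of 31 members were called, Ak4, Pck1 and Keg1, against 6.57% of all genes. At an unadjusted p under 0.05 there were 17 of 31, against 24.5%. Fitted peaks lay between ZT12 and ZT20 for 30 of 31 members and for 41.3% of all genes. The median amplitude was 0.60 for members and 0.13 for all genes.

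Ak4 encodes an adenylate kinase of the mitochondrial matrix that is abundant in proximal tubule. In DCT/CNT its pools read 8.41 and 7.82 at ZT0, 7.58 and 7.65 at ZT4, 7.50 and 7.30 at ZT8, 9.17 and 9.50 at ZT12, 9.03 and 9.56 at ZT16, and 8.97 and 9.37 at ZT20. The 6 arrays from lights off onwards were all above the 6 arrays of the light phase, with no overlap. For Ak4, and for Pck1 below, this describes the same values that gave the call. The share of all genes with such a split is not given here. The fitted curve had an amplitude of 1.07 (SE 0.20), a swing of 4.41-fold, and a peak at ZT 16.6 (adjusted p = 0.00636). The call held in each of the 24 omissions of an array (adjusted p up to 0.0196) and in each of the 6 omissions of a time (adjusted p up to 0.046). It was lost in an F test over the 6 group means, which assumes no curve (adjusted p = 0.0586). Of 5 Ak4 probe sets, the 3 brightest read higher at ZT12 than at ZT8 by 1.94, 1.36 and 2.23, and the 2 dimmest by -0.04 and 0.24.

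Pck1 encodes phosphoenolpyruvate carboxykinase, which commits carbon to gluconeogenesis. In DCT/CNT it read 8.0 and 7.32 at ZT0, 7.84 and 7.79 at ZT4, 7.32 and 7.54 at ZT8, 9.90 and 10.01 at ZT12, 8.85 and 9.47 at ZT16, and 8.61 and 9.20 at ZT20. Again all 6 arrays from ZT12 on stood above the 6 earlier ones, with the top at ZT12. The amplitude was 1.10 (SE 0.26), a swing of 4.63-fold, with a peak at ZT 15.2 (adjusted p = 0.0321). The call ended without DCT/CNT ZT0 replicate 2, ZT12 replicate 1, ZT12 replicate 2 or ZT16 replicate 2 (adjusted p up to 0.0643) and without any 1 time but ZT8 (up to 0.0834). It also ended with array weights (adjusted p = 0.0526), with the segment fitted alone (0.0621) and in the F test over group means (0.0669).

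Keg1 encodes a glycine N-acyltransferase-like protein of kidney and lies beside its relative Glyat on chromosome 19 (Keg1 at 12695790-12719902, Glyat at 12633308-12651737, GRCm38.p6). In DCT/CNT Keg1 read 8.34 and 7.13 at ZT0, 7.53 and 6.74 at ZT4, 7.31 and 6.60 at ZT8, 9.31 and 9.24 at ZT12, 8.0 and 9.20 at ZT16, and 8.78 and 8.85 at ZT20. ZT12 was highest in both pools, and ZT16 pool 1 read below ZT0 pool 1. The amplitude was 1.06 (SE 0.27) with a peak at ZT 16.3 (adjusted p = 0.0438), and the call ended in 15 of the array omissions (adjusted p up to 0.11) and 4 of the time omissions (up to 0.191). It also ended with array weights (0.0888), with the segment fitted alone (0.102) and in the F test over group means (0.142). That F test in limma thus called none of these 3, and called Slc34a3 and Slc5a2 instead (adjusted p = 0.0331 and 0.0343). Glyat, which conjugates glycine to benzoate and similar acids, had a fitted amplitude of 0.52 (SE 0.26), which was not called (adjusted p = 0.372).

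Close to the threshold were Slc27a2 (amplitude 0.73, SE 0.20, adjusted p = 0.061), Hnf4a (0.94, SE 0.26, 0.0629), Slc34a3 (0.32, SE 0.09, 0.068) and Kap (0.59, SE 0.17, 0.0827). The number called depended on single arrays. It was 9 of 31 without DCT/CNT ZT16 replicate 1, 6 without DCT/CNT ZT0 replicate 1, 5 without CCD ZT12 replicate 1, and 1 without DCT/CNT ZT0 replicate 2, ZT12 replicate 1 or ZT12 replicate 2. The shares of all genes called in these omissions are not given here, so no trait of the members is read from the counts. With the mean of the 63 other proximal genes on each array as a covariate, Ak4 was the 1 member still called (amplitude 0.71, SE 0.11, adjusted p = 0.00211), while Pck1 and Keg1 had adjusted p of 0.095 and 0.195.

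**Figure D3:**
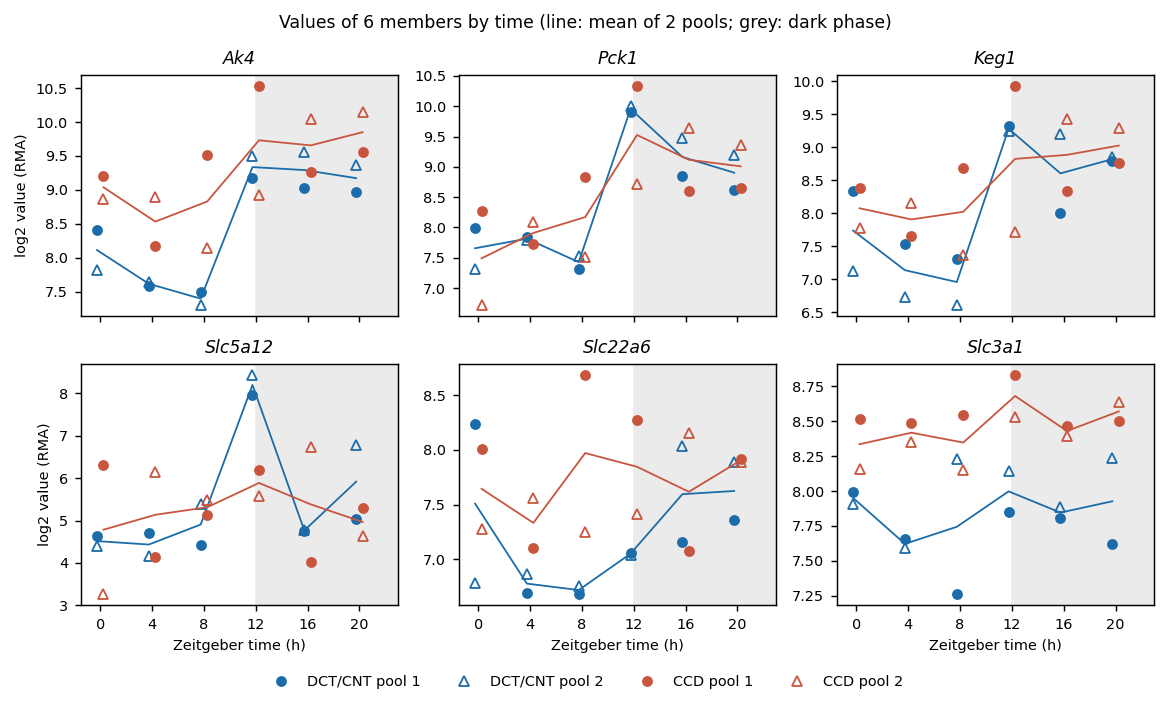
Log2 values of 6 members are plotted against zeitgeber time, DCT/CNT in blue and CCD in red, with each pool as a point and the mean of both as a line. Ak4, Pck1 and Keg1 lie high from ZT12 to ZT20 in DCT/CNT, Slc5a12 is high at ZT12 with both pools near 8, and Slc22a6 and Slc3a1 show no such step at ZT12.

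In CCD 0 of 31 members were called rhythmic by limma, against 2.47% of all genes, and 3 of 31 had an unadjusted p under 0.05, against 14.2%. These 3 were Pck1, Ak4 and Cubn. Pck1 in CCD read 8.27 and 6.71 at ZT0, 7.73 and 8.09 at ZT4, 8.83 and 7.52 at ZT8, 10.34 and 8.71 at ZT12, 8.60 and 9.63 at ZT16, and 8.66 and 9.36 at ZT20. The pools of ZT0, ZT8, ZT12 and ZT16 differ by more than 1 log2 unit, and the values of the dark and light phases overlap. The Pck1 curve peaked at ZT 14.6 with an amplitude of 0.95 (SE 0.26) and was not called (adjusted p = 0.123). Ak4 read 9.20 and 8.87 at ZT0, 8.18 and 8.89 at ZT4, 9.52 and 8.14 at ZT8, 10.54 and 8.92 at ZT12, 9.26 and 10.05 at ZT16, and 9.55 and 10.15 at ZT20. The Ak4 curve peaked at ZT 16.6 and its amplitude was 0.67 (SE 0.20), short of a call (adjusted p = 0.159).

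With the other proximal mean as a covariate, Ak4 in CCD was called (amplitude 0.39, SE 0.09, peak ZT 18.0, adjusted p = 0.0462) and no other member was. Fitted CCD peaks lay between ZT12 and ZT20 for 24 of 31 members and 30.7% of all genes, with a median amplitude of 0.35 against 0.10. No member's rhythm differed between the segments at an adjusted p under 0.05 in limma (0 of 31, against 0.011% of all genes). Slc2a2 was the 1 member with an unadjusted p under 0.05 in limma (against 8.89% of all genes), and its adjusted p was 0.534. A call in DCT/CNT and none in CCD is thus no shown difference between them.

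**Figure D4:**
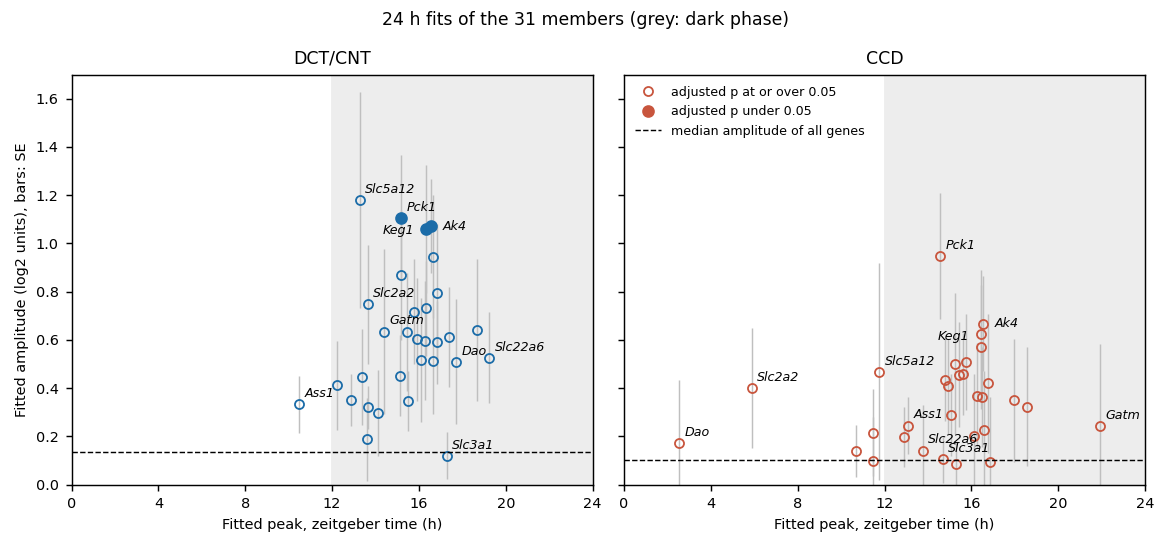
The fitted amplitude with its SE is plotted against the fitted peak time for each member, DCT/CNT on the left and CCD on the right, with filled points for adjusted p under 0.05. In DCT/CNT 30 of 31 peaks lie between ZT12 and ZT20, and the 3 filled points (Ak4, Pck1, Keg1) have amplitudes between 1.06 and 1.10; in CCD no point is filled.

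The largest change between neighbouring times in the member mean was that from ZT8 to ZT12 in DCT/CNT, and that step was tested for each gene. By limma 0 of 31 members passed, as did 0.0495% of all genes. At an unadjusted p under 0.05 there were 22 of 31, against 11.2%. The estimate was above 0 in 30 of 31 members (54.9% of all genes), with a median of 1.37 against 0.02. In 29 of 31 both ZT12 pools stood above both ZT8 pools, against 22.6% of all genes. Both the members and the step were picked with an earlier view of these values known. The size of the step and the counts beside it are thus a description. The DCT and CNT list also stood lower at ZT8 (9.72 and 9.87) than at ZT12 (10.69 and 11.13), as did the thick ascending limb list (7.49 and 7.70 against 7.91 and 8.24), while the principal cell list read 10.63 and 10.70 against 10.76 and 10.67. The part of these lists in the step was not tested.

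Pck1 had the smallest adjusted p among members (ZT12 minus ZT8 2.53, SE 0.57, 5.77-fold, adjusted p = 0.0922). Of 3 Pck1 probe sets, the dimmer ones put this step at 1.19 and -0.24. The largest estimate was that of Slc5a12, a sodium-coupled lactate carrier of the apical membrane. Its DCT/CNT pools read 4.64 and 4.39 at ZT0, 4.71 and 4.16 at ZT4, 4.43 and 5.38 at ZT8, 7.95 and 8.44 at ZT12, 4.75 and 4.78 at ZT16, and 5.04 and 6.79 at ZT20. Apart from ZT20 pool 2, the ZT12 arrays stood more than 2 log2 units above every other array of the segment. The step was 3.29 (SE 0.93, 9.79-fold, adjusted p = 0.167), and the second Slc5a12 probe set read 2.31 higher. Slc5a12 did not follow the 24 h curve well (amplitude 1.18, SE 0.45, adjusted p = 0.205).

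In CCD the same step had 0 of 31 members called by limma (0.0055% of all genes), 3 of 31 at an unadjusted p under 0.05 (6.85%), and a median of 0.51. Both ZT12 pools stood above both ZT8 pools in 3 of 31, against 16.5% of all genes. The difference of the steps between the segments was called in 0 of 31 by limma (0.0% of all genes), and 5 of 31 had an unadjusted p under 0.05 (6.8%). The largest of these was Slc2a2, with a step 2.30 (SE 0.77) higher in DCT/CNT (unadjusted p = 0.00876, adjusted p = 0.625). With the other proximal mean as a covariate the DCT/CNT estimate was above 0 in 19 of 31 members, with a median of 0.41. The share and median over all genes with this covariate are not given here, so no trait of the members is read from these values.

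Phosphate is taken up from the filtrate by Slc34a1 (NaPi-IIa) and Slc34a3 (NaPi-IIc). Slc34a1 in DCT/CNT read 6.84 and 7.18 at ZT8 and 8.67 and 8.96 at ZT12, a step of 1.80 (SE 0.57, adjusted p = 0.213), and in CCD 8.55 and 6.80 at ZT8 and 8.23 and 7.52 at ZT12. The CCD pools of ZT8 thus lay about as far apart as the DCT/CNT means of ZT8 and ZT12. Slc34a3 was the member with the widest gap between the segments relative to its spread. On the 12 DCT/CNT arrays it ranged from 4.94 through a median of 5.33 to 6.20, and on the 12 CCD arrays from 3.98 through 4.23 to 4.44.

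Slc34a3 was the 1 member for which every DCT/CNT array lay above every CCD array, as held for 8.43% of all genes. No member had every DCT/CNT array below every CCD array, as held for 19.4%. The Slc34a3 difference was 1.15 (SE 0.07, 2.21-fold, adjusted p = 5.24e-10). Within DCT/CNT it read 5.44 and 5.18 at ZT8 and 6.20 and 5.80 at ZT12, a step of 0.69 (SE 0.17, adjusted p = 0.102), while in CCD its step was 0.01 (SE 0.17).

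Endocytosis of filtered protein runs through megalin (Lrp2) and cubilin (Cubn), while Pdzk1 scaffolds brush border transporters and Napsa encodes the aspartic protease napsin A. The Lrp2 DCT/CNT pools read 6.52 and 6.48 at ZT8 and 7.71 and 7.73 at ZT12, a step of 1.22 (SE 0.43, adjusted p = 0.264). Pdzk1 read 6.81 and 7.20 at ZT8 and 8.74 and 9.18 at ZT12, a step of 1.96 (SE 0.49, adjusted p = 0.123). In CCD ZT12 pool 1 was the highest array for all 4 genes, at 7.72 for Lrp2, 7.13 for Cubn, 9.52 for Pdzk1 and 9.08 for Napsa, while ZT12 pool 2 read 6.74, 5.94, 7.76 and 8.06. Napsa had a DCT/CNT step of 0.67 (SE 0.46) and its second probe set one of -0.01.

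Glucose leaves the filtrate through SGLT2 (Slc5a2) and the cell through GLUT2 (Slc2a2), and Slc4a4 encodes the basolateral sodium bicarbonate cotransporter. Slc2a2 in DCT/CNT read 3.86 and 5.14 at ZT0, 5.08 and 4.45 at ZT8 and 6.70 and 6.93 at ZT12, and both ZT12 pools were above the 10 other arrays. Its step was 2.05 (SE 0.54, adjusted p = 0.138). Slc5a2 ranged from 9.02 to 10.31 in DCT/CNT and more narrowly, from 9.29 to 9.80, in CCD, with a DCT/CNT step of 0.74 (SE 0.20, adjusted p = 0.138) that its second probe set put at 0.08. Slc4a4 read 9.0 and 8.42 at ZT8 and 9.78 and 10.27 at ZT12 (step 1.31, SE 0.35, adjusted p = 0.143), and 4 of its 5 probe sets had an estimate above 0.

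The organic anion transporters Slc22a6 (OAT1) and Slc22a8 (OAT3) take drugs and metabolites from the blood, Slc22a12 (URAT1) moves urate, Slc13a3 takes up dicarboxylates and Slc17a1 carries phosphate and organic anions. Slc22a6 did not share the ZT12 maximum. In DCT/CNT it read 8.24 and 6.78 at ZT0, 6.69 and 6.86 at ZT4, 6.68 and 6.76 at ZT8, 7.06 and 7.04 at ZT12, 7.15 and 8.04 at ZT16, and 7.36 and 7.89 at ZT20. Its highest arrays were ZT0 pool 1 and ZT16 pool 2, its step was 0.33 (SE 0.52, adjusted p = 0.869), and its fitted peak was at ZT 19.2. Slc13a3 was likewise highest on ZT0 pool 1, at 9.02 against 7.43 in pool 2, with 8.26 and 7.93 at ZT12.

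Slc22a8 read 6.17 and 6.18 at ZT8, 7.98 and 6.81 at ZT12 and 6.79 and 7.89 at ZT16, so single pools of 2 times were high. In CCD its highest array was ZT8 pool 1, at 8.21 against 5.68 in pool 2, which is the widest gap of any member at that time. Slc22a12 kept within 7.71 to 8.99 in DCT/CNT and 7.52 to 8.70 in CCD. ZT0 pool 1 of DCT/CNT thus held high values of Slc22a6, Slc13a3, Kap (12.20), Slc7a13 (8.08) and Slc17a1 (7.70), each the highest of its 12 arrays, while the same array had the lowest Slc2a2 value (3.86) and a Slc5a12 value of 4.64.

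Slc3a1 encodes the heavy chain of the cystine transporter, Slc7a13 a light chain of the late proximal tubule, and Slc27a2 a fatty acid carrier and acyl-CoA synthetase. Slc3a1 had the smallest range of time means of the members in DCT/CNT (0.38), with arrays between 7.26 and 8.23 there and between 8.15 and 8.83 in CCD, and a DCT/CNT amplitude of 0.12 (SE 0.10, adjusted p = 0.678). Its step was 0.25 (SE 0.26) and turned to -0.23 without DCT/CNT ZT8 replicate 1. Slc27a2 read 9.45 and 9.06 at ZT8 and 10.71 and 10.94 at ZT12 (step 1.57, SE 0.47, adjusted p = 0.186). Slc7a13 in CCD read 9.58 and 8.23 at ZT12 and 8.27 and 7.44 at ZT8.

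Beside Pck1, gluconeogenesis was measured through Fbp1, fructose bisphosphatase, and G6pc, the glucose-6-phosphatase catalytic subunit that releases free glucose. In DCT/CNT G6pc read 6.41 and 5.44 at ZT8, 7.80 and 8.13 at ZT12 and 7.59 and 8.14 at ZT20, and ZT16 lay lower, at 6.58 and 7.07. Its step was 2.04 (SE 0.65, adjusted p = 0.216) and its amplitude 0.79 (SE 0.29, adjusted p = 0.176). Fbp1 read 7.80 and 7.95 at ZT8 and 9.92 and 9.77 at ZT12 (step 1.97, SE 0.58, adjusted p = 0.184). In CCD both were split by pool at ZT8, with 7.25 and 5.05 for G6pc and 9.32 and 7.68 for Fbp1.

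Gatm makes the creatine precursor guanidinoacetate, Miox opens inositol, Dao oxidises D-amino acids, Agxt2 transaminates glyoxylate and dimethylarginines, and Ass1 makes argininosuccinate. Gatm read 6.01 and 5.97 at ZT8 and 8.53 and 8.52 at ZT12, with nearly equal pools, a step of 2.53 (SE 0.74, adjusted p = 0.182). Miox read 6.27 and 6.55 at ZT8 and 8.12 and 8.26 at ZT12 (step 1.78, SE 0.63, adjusted p = 0.271). Dao, with a step of 1.37 (SE 0.67), was low on 2 CCD arrays, ZT12 pool 2 (4.99) and ZT16 pool 1 (5.07), against 7.43 and 7.25 in the partner pools. Agxt2 had a step of 0.68 (SE 0.47). Ass1 was the exception in the direction of the step, with an estimate of -0.06 (SE 0.30) on a dim probe set whose 24 values stayed between 2.88 and 5.25.

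Hnf4a in DCT/CNT read 9.03 and 7.42 at ZT0, 7.02 and 7.42 at ZT4, 6.74 and 7.13 at ZT8, 8.97 and 9.62 at ZT12, 8.27 and 9.04 at ZT16, and 8.36 and 8.77 at ZT20. The 6 arrays from ZT12 on stood above the earlier ones except ZT0 pool 1. Its step was 2.36 (SE 0.60, 5.14-fold, adjusted p = 0.124), and its 3 other probe sets read 0.57, 1.72 and 1.83 higher. Kap, an androgen-dependent secreted protein gene of the proximal tubule, read 10.90 and 10.68 at ZT8 and 11.90 and 11.99 at ZT12 (step 1.16, SE 0.44, adjusted p = 0.314), and its second probe set 1.11 higher.

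Between the segments, averaged over the 6 times, 14 of 31 members differed (adjusted p under 0.05 in limma), against 77.4% of all genes. In 4 of 31 DCT/CNT was higher (30.4% of all genes) and in 10 of 31 it was lower (47.0%). The share called among members was thus below that among all genes, and the members' wide spread between pools, given above, stands beside it. The median gene differed by -0.13 in the deposited values, so differences of members are given relative to it. The SE and adjusted p belong to the difference before this shift, tested against 0. Differences of second probe sets are given without the shift. With arrays brought to equal medians 10 members were called, 6 higher and 4 lower. After quantile or cyclic loess normalisation 9 were called each time, 7 higher and 2 lower. The median gene differed by 0.08 with equal medians, 0.01 after quantile and 0.0008 after cyclic loess normalisation. The shares of all genes called under these scalings are not given here. These counts thus describe dependence on the scaling and no trait of the members.

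Called with 1 sign under all 4 scalings were Slc34a3 (1.27 above the median gene), Slc2a2 (1.18), Ass1 (0.94) and Slc22a12 (0.57), all higher in DCT/CNT, and Slc7a13 (-1.01), lower. These sizes are from the deposited values. Over the 4 scalings the difference fell as low as 0.85 for Slc34a3, 0.78 for Slc2a2 and 0.45 for Ass1. It reached 0.87 for Slc22a12 and ran from -1.01 to -0.78 for Slc7a13. Slc2a2 ranged from 3.86 through a median of 5.22 to 6.93 in DCT/CNT and from 3.34 through 4.23 to 5.47 in CCD, so the segments overlap. Slc22a12 ranged from 7.71 through 8.37 to 8.99 and from 7.52 through 7.83 to 8.70, and its second probe set differed by -0.41. Slc7a13 ranged from 6.14 through 7.03 to 8.08 in DCT/CNT and from 7.44 through 8.24 to 9.58 in CCD. Its second, dimmer probe set went the other way by 1.11, and with the mean of both the difference was 0.08 (adjusted p = 0.944).

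Ak4 (-0.66), Napsa (-0.65) and Slc3a1 (-0.49) were lower in DCT/CNT in the deposited values and with equal medians (adjusted p up to 0.0136), but not after quantile or loess normalisation (adjusted p between 0.0514 and 0.19). The second Napsa probe set went the other way, by 0.39 without the shift. The other Ak4 probe sets differed by -0.48, 0.13, -0.01 and 0.21, also without the shift. Cubn (-0.38) was called with the deposited values and after quantile and loess normalisation, but not with equal medians (adjusted p = 0.0742). Pdzk1, Slc22a6, Slc27a2, Miox and Kap were called with the deposited values alone. Other members gained a call under another scaling. Dao (0.71, adjusted p = 0.0645 as deposited) and G6pc (0.68, 0.0691) were called higher in DCT/CNT with equal medians and after quantile and loess normalisation (adjusted p up to 0.0288 and 0.0435). Slc5a2 (0.09 as deposited) was called after quantile and loess normalisation, at 0.41 and 0.44. Before the shift to the median gene, the deposited differences were 0.58 for Dao, 0.55 for G6pc and -0.04 for Slc5a2. Level on the array moved with the sign. Without the shift to the median gene, the median segment difference was 0.28 over genes at or under the array median. Over brighter genes it was -0.36. The 6 members at or under that level (Slc34a3, Cubn, Slc2a2, Slc5a12, Ass1 and Agxt2) had a median of 0.51 and the other 25 one of -0.17, also without the shift. The part of signal level in these differences was not tested.

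**Figure D5:**
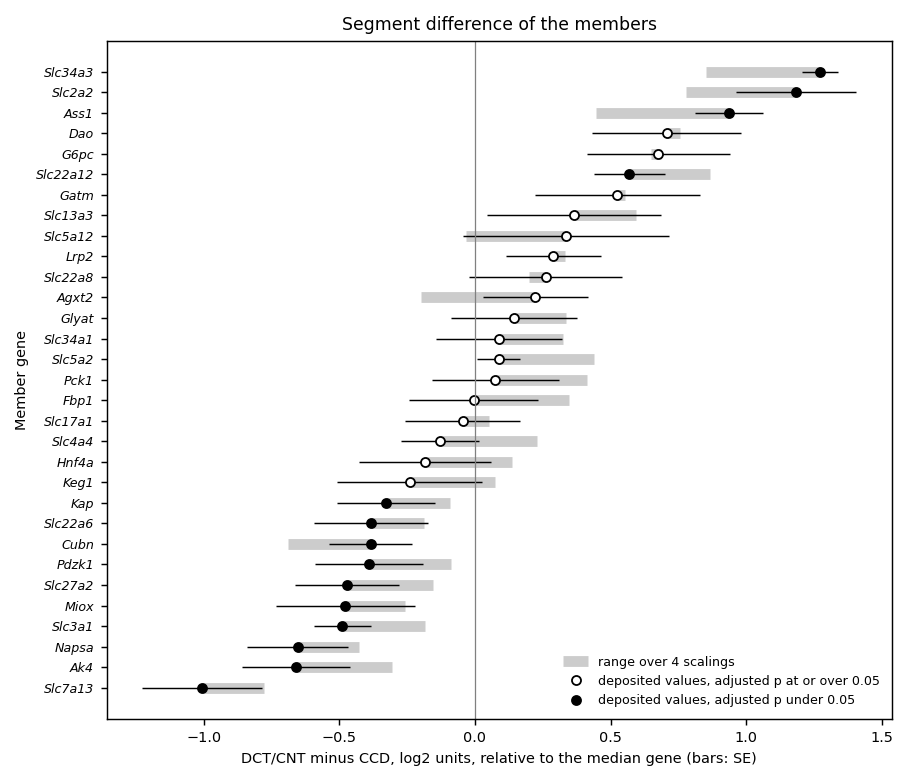
The difference DCT/CNT minus CCD relative to the median gene is plotted for each member with its SE, filled where the adjusted p was under 0.05 in the deposited values, over a grey bar for the range under 4 scalings. The SE and adjusted p belong to the difference before the shift to the median gene. Slc34a3 is highest at 1.27 and Slc7a13 lowest at -1.01, and the grey bars of several members near the middle cross 0.

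Among the 63 other proximal genes, 4 were called rhythmic in DCT/CNT (6.57% of all genes), 3 in CCD (2.47%) and 35 between the segments (77.4%; 14 higher and 21 lower in DCT/CNT). Aqp1, the water channel of proximal tubule and thin limb, peaked at ZT 16.5 in DCT/CNT (amplitude 0.50, SE 0.11, adjusted p = 0.0273). Gldc, of the glycine cleavage system, peaked at ZT 15.3 (0.48, SE 0.11, adjusted p = 0.0248), and Slc7a7, a basolateral amino acid exchanger, at ZT 13.8 (0.58, SE 0.14, adjusted p = 0.0399). Dab2, an endocytic adaptor that is also made in other kidney cells, peaked in the light phase in both segments, at ZT 3.30 in DCT/CNT (amplitude 0.32, SE 0.04, adjusted p = 0.000149) and at ZT 1.83 in CCD (0.20, SE 0.04, adjusted p = 0.0185).

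In CCD the organic anion transporter Slc22a7 (amplitude 0.69, SE 0.16, peak ZT 14.8, adjusted p = 0.0466) and the glutathione transferase Gsta2 (0.42, SE 0.08, peak ZT 23.1, adjusted p = 0.0193) were called as well. Between the segments the smallest adjusted p belonged to Dab2 (-0.61 relative to the median gene, adjusted p = 2e-10), Mme, the brush border endopeptidase neprilysin (-0.69, adjusted p = 1.43e-09), Anpep, aminopeptidase N (0.70, adjusted p = 3.13e-06), and Gsta2 (0.75, adjusted p = 6.15e-06).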

How the data were processed

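Expression was measured on 24 arrays, 2 pools in each of 12 groups of segment and time, from amplified RNA (10 ng per array). The deposited table gives log2 values of 45101 probe sets that the authors made with RMA, per the submitters' processing notes, without a version, and whether the segments were normalised together is not given in the sources used here. The number of arrays limits the precision. Probe sets with several symbols (932) or none (9211) were left out. The other 34958 gave 18194 genes, each read from the probe set with the highest mean. Symbols of 34754 matched RefSeq GRCm38.p6, with 0 updated.

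Values were used as deposited. limma 3.58.1 in R 4.3.3 fitted all 24 arrays together in the main fits, with 1 residual variance per gene across both segments. The rhythms used a 24 h cosine curve per segment (18 residual degrees of freedom). The segment difference and the ZT8 to ZT12 step used 12 group means (12 residual degrees of freedom). The SE and p-value of a segment thus also carry the spread of the other. Ak4, for example, had a pool SD of 0.28 in DCT/CNT and 0.71 in CCD. P-values were adjusted by Benjamini-Hochberg over all genes and called under 0.05. SE is limma's, and SD is between pools. The fits were also run on simulated data with noise drawn separately for each gene. Members moved together by pool in the real data, so the simulation cannot speak to that setting.

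Members, gene lists and tests were chosen with earlier results of these data known. All members are named. Other proximal genes are named by smallest adjusted p among those called, up to 6 per test and 4 for the segments. Promoters were to be printed for members called under every alternative, which no member met, so they were chosen from the values. Alternatives were other scalings, probe set rules, weights, fits and covariates, and omission of each array or time. The labels give no batch or date.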

Additional observations from a re-analysis of the deposited data

How the results depend on the processing

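Rhythm calls among members in DCT/CNT (3 as reported) numbered 5 with dim genes left out (of 25 members), and 1 with array weights, with the segment fitted alone or with the other proximal mean as covariate. The F test over group means gave 2, neither of them among the 3 reported. The calls numbered 1 without ZT0, 1 without ZT4, 5 without ZT16 and 1 without ZT20, and ranged from 1 to 9 when single arrays were omitted. In CCD the covariate gave 1 (0 as reported), and single omissions gave 0 throughout. Segment calls (14) numbered 9 after quantile or cyclic loess normalisation, 9 with the mean of all probe sets and 9 without ZT4, and 10 to 16 over single omissions. Rhythm difference, both steps and their difference stayed at 0 calls in the alternatives run. The cause of the moved counts was not tested. Shares of all genes called under these alternatives are not given beside the counts, so no trait of the members is read from them. With the covariate, the DCT/CNT step turned to -0.0261 for Lrp2, -0.71 for Napsa, -1.57 for Slc22a6, -0.80 for Slc22a12, -0.83 for Slc13a3, -0.22 for Slc17a1, -0.0085 for Slc3a1, -0.99 for Slc7a13, -0.27 for Slc27a2, -0.16 for Agxt2 and -0.67 for Kap. With the mean of all probe sets it was -0.0788 for Slc22a6. Over single omissions it ranged from -0.23 (without DCT/CNT ZT8 replicate 1) to 0.74 for Slc3a1 and from -0.62 to 0.51 (without the same array) for Ass1, which was also above 0, at 0.26, without DCT/CNT ZT12 replicate 2. The segment difference of Slc7a13 relative to the median gene was 0.0827 with the mean of all probe sets. Whether same-numbered pools of the 2 segments share animals is not given in the sources used here. Deviations of same-numbered pools correlated across segments with r from -0.03 to 0.09 over all genes, which cannot decide this. The member medians of pool 1 minus pool 2 had opposite signs in DCT/CNT and CCD at ZT4 (0.06 and -0.38) and ZT12 (-0.13 and 1.02). At the other times they shared a sign, as at ZT0 (0.82 and 0.61) and ZT16 (-0.58 and -0.72). With the pool number as a replicate block the counts were 3, 0, 0 and 14 for the rhythms, their difference and the segments and 0 for the steps, and with time and pool pairs as the block the segment count was 15.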
